A study of Mus musculus with 8 samples.

Results

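The red cell membrane skeleton was examined as 9 listed genes, Sptb, Ank1, Epb41, Epb42, Slc4a1, Tmod1, Add2, Dmtn and Mpp1. Every probe set that the array annotation assigned to one of these symbols was taken, whatever its level. This gave 22 of the 45037 probe sets on the array and covered 8 of the 9 genes. Epb41, which encodes protein 4.1R, was not analysed here. The RNA came from whole spleens of 8-week-old, untreated mice, hybridised to Affymetrix mouse arrays without pooling, 1 extract per array. There were 4 arrays of Nix null (Nix-/-) mice, called Nix_KO 10, 2, 3 and 6 after the numbers in their titles, and 4 of wild-type controls, called WT 3, 4, 5 and 6. The labels give neither the strain and sex nor the deleted part of Bnip3l, the gene that encodes Nix. The title of the series names apoptosis and erythropoiesis as its subjects, and the comparison asks how spleen transcripts of this protein network differed between the genotypes.

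The membrane skeleton is a lattice of spectrin tetramers under the red cell membrane that gives the cell its strength and its ability to deform. It is fastened to the lipid bilayer at complexes built on ankyrin and band 3, and its spectrin ends meet at junctions of short actin filaments. Red cell precursors make these proteins as they mature, and the mouse spleen, unlike the adult human spleen, is a site of red cell production. Nix is a mitochondrial outer membrane protein needed for the clearance of mitochondria from maturing red cells.

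Of the 22 probe sets, 18 were bright enough to test, meaning that 4 or more of the 8 arrays had a log2 intensity no lower than 5. The deposited intensities were log2-transformed, and the genotypes were compared with limma over all 22347 probe sets that met this condition, with Benjamini-Hochberg adjustment and a threshold of 0.05. Among the 18, 17 rose in Nix-null spleens, 0 fell and 1 did not pass, beside 12.5% of all tested probe sets that rose and 17.6% that fell. Their median log2 change was 2.06, beside -0.12 for all probe sets tested, and the 17 calls lay between 2.09-fold and 12.4-fold. In 17 of the 18, all Nix_KO arrays lay above all WT arrays, which was so in 15.0% of all probe sets tested. Over all 22, tested or not, the median was 1.77. Every one of the 18 had WT arrays at or above 5, but in Sptb 1455226_at, Slc4a1 1431743_a_at and Dmtn 1438189_s_at only 2, 3 and 3 of the 4 did, so these 3 could not have met the condition without the Nix_KO arrays. Levels of different probe sets or genes are not comparable on these arrays, so the genotypes are compared within a probe set below. Intensity ranks and summed marker intensities, which mix probe sets, are given as descriptions of the arrays. In bulk spleen RNA, more cells of a type and more RNA per cell cannot be told apart.

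Some properties of the arrays bear on these values. The share of probe sets at log2 5 or above was 48.6% to 49.3% in the Nix_KO arrays and 48.9% to 49.3% in the WT arrays. Transcripts of pancreatic enzymes were abundant in Nix_KO 3, WT 3 and WT 5, with a summed intensity from 1031 to 78138 over the Nix_KO arrays and from 913 to 42720 over the WT arrays. Without these 3 arrays, 5 of the 18 member probe sets passed, beside 2.24% of all probe sets that then rose. The log2 change was larger without them in 17 of the 18, and the adjusted p-values of limma ran from 0.0476 to 0.200. The signal of the 3' over the 5' actin control differed by 0.84 to 1.74 log2 units in the Nix_KO arrays and by 0.69 to 0.98 in the WT arrays, a sign of RNA integrity whose part in the member changes was not tested. Bnip3l itself was read by 3 probe sets that also match a pseudogene, none of which passed (limma adjusted p from 0.117 to 0.164). It therefore did not check the labels. Whether each array is a separate animal is stated only as non-pooled extracts, so p-values measure the spread between these samples.

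The members that form and anchor the lattice rose together. Sptb encodes beta-spectrin of the red cell. Its brighter probe set, 1450556_at, read log2 intensities of 9.92, 9.70, 10.23 and 10.39 in Nix_KO 10, 2, 3 and 6, and 8.82, 8.04, 8.09 and 6.28 in WT 3, 4, 5 and 6. All Nix_KO arrays lay above all WT arrays, and WT 6 stood well below the other WT arrays. The Nix_KO mean of 10.06 ± 0.31 (SD, n = 4) was 4.75-fold above the WT mean of 7.81 ± 1.08, a log2 change of 2.25 ± 0.46 (SE, limma adjusted p = 0.00741). Ank1 encodes ankyrin-1, which ties beta-spectrin to band 3. Probe set 1419421_at for Ank1 read 10.93, 10.69, 11.64 and 11.63 in the Nix_KO arrays and 9.98, 9.38, 8.96 and 7.65 in the WT arrays, in the same array order. The groups did not overlap, and WT 3 was the nearest to the Nix_KO arrays. The means were 11.22 ± 0.49 and 8.99 ± 0.99, and the change was 2.23 ± 0.45 on the log2 scale, or 4.70-fold (limma adjusted p = 0.00713).

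At the ankyrin complex, band 3 and protein 4.2 both rose. Slc4a1 encodes band 3, the chloride and bicarbonate exchanger that is the main anchor of the skeleton in the membrane. Its brightest probe set, 1434502_x_at, read 15.51, 15.54, 15.73 and 15.48 in Nix_KO 10, 2, 3 and 6, and 14.67, 14.59, 14.60 and 13.86 in WT 3, 4, 5 and 6. The Nix_KO arrays lay within 0.25 log2 units of each other, while WT 6 fell apart from the other WT arrays. The change of 1.13 ± 0.20 (limma adjusted p = 0.00434) was 2.19-fold, from 14.43 ± 0.38 to 15.56 ± 0.11. By intensity this probe set ranked between 10 and 21 of 45037 in the Nix_KO arrays and between 130 and 265 in the WT arrays. The highest intensity on any array was 16.20 to 16.34 on the log2 scale. Epb42 encodes protein 4.2, a transglutaminase relative without enzyme activity that binds band 3 and ankyrin. Probe set 1417337_at read 11.34, 11.95, 11.97 and 11.43 for Epb42 in the Nix_KO arrays and 10.02, 9.69, 9.41 and 8.14 in the WT arrays. No WT array reached the lowest Nix_KO array. The log2 change was 2.36 ± 0.37, or 5.14-fold, between means of 11.67 ± 0.33 and 9.31 ± 0.82 (limma adjusted p = 0.0034).

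The 4 members of the actin junctions rose as well. Add2 encodes beta-adducin, which caps the fast-growing end of the junctional actin filament and brings spectrin to it. Its brightest probe set, 1435287_at, read 10.10, 10.35, 10.48 and 10.82 in Nix_KO 10, 2, 3 and 6, and 9.01, 8.16, 8.31 and 6.37 in WT 3, 4, 5 and 6. This was the largest change among the brightest probe sets of the 8 genes, 2.48 ± 0.48 or 5.57-fold, from 7.96 ± 1.13 to 10.44 ± 0.30 (limma adjusted p = 0.00596). Dmtn encodes dematin, an actin-bundling protein with a villin headpiece. Probe set 1460223_a_at for Dmtn read 10.75, 11.29, 11.29 and 11.52 in the Nix_KO arrays and 9.99, 9.51, 9.31 and 7.45 in the WT arrays. Neither gene's groups overlapped, and WT 6 was the lowest array for both. Dmtn changed by 2.14 ± 0.47, or 4.42-fold, from 9.07 ± 1.11 to 11.21 ± 0.33 (limma adjusted p = 0.00998). It is the only measured member on chromosome 14, which also carries Bnip3l, with 44 protein-coding genes between them in the RefSeq annotation of GRCm38.p6.

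Tmod1 encodes tropomodulin-1, which caps the slow-growing end of the same filaments. Its single probe set, 1422754_at, read 9.77, 10.12, 10.88 and 10.61 in Nix_KO 10, 2, 3 and 6, and 8.50, 8.67, 8.33 and 7.94 in WT 3, 4, 5 and 6. Here the Nix_KO arrays were the more scattered group, with an SD of 0.50 around 10.35 against 0.31 around 8.36. The change was 1.99 ± 0.26 on the log2 scale, or 3.96-fold (limma adjusted p = 0.00249). Mpp1 encodes p55, a palmitoylated scaffold that joins protein 4.1R to glycophorin C. Probe set 1450919_at for Mpp1 read 11.63, 12.14, 12.23 and 12.42 in the Nix_KO arrays and 11.05, 10.88, 11.10 and 10.75 in the WT arrays. WT 6 was again the lowest array, but only by 0.35 log2 units from the highest WT array. Mpp1 rose by 1.16 ± 0.19, or 2.23-fold, from 10.94 ± 0.16 to 12.10 ± 0.34 (limma adjusted p = 0.0038).

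**Figure D1:**
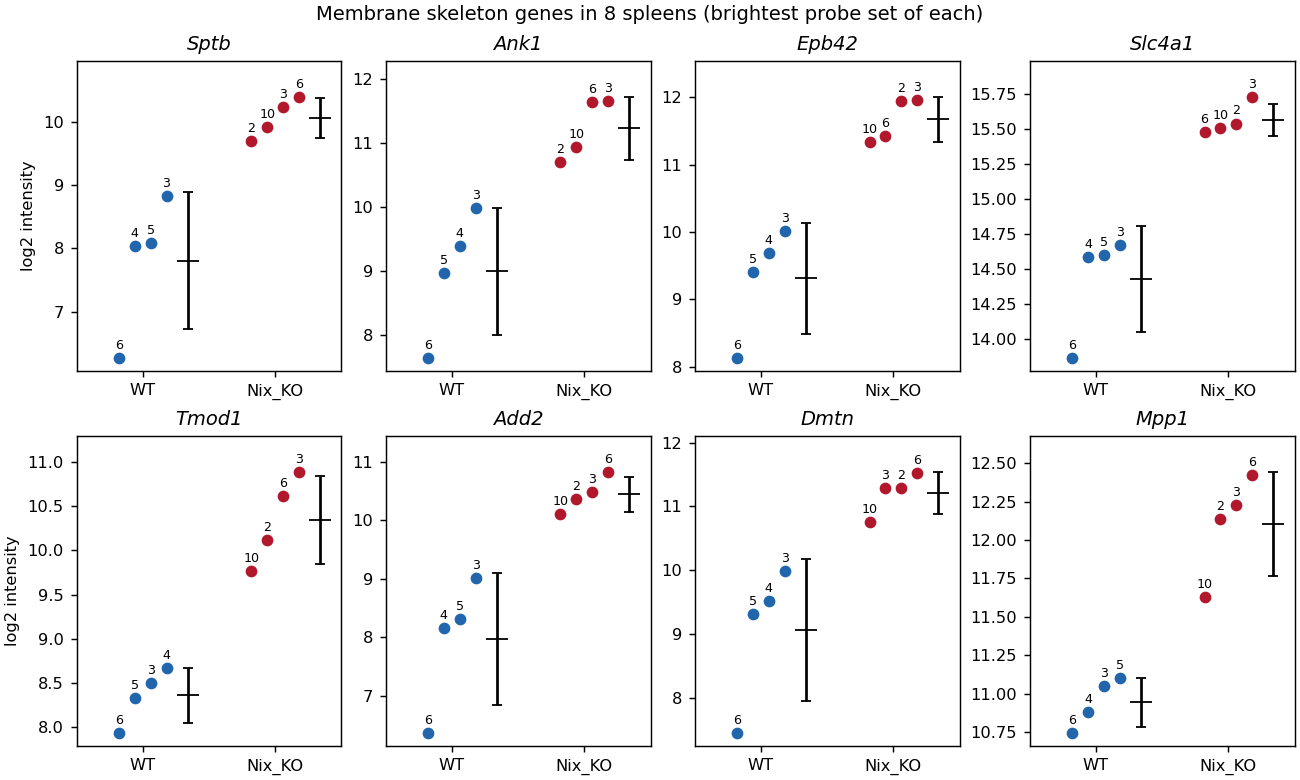
Log2 intensity of the brightest probe set of each of the 8 measured membrane skeleton genes, with 1 point per array and the group mean with its SD beside the points. All Nix_KO arrays lie above all WT arrays in each gene, and WT 6 is the lowest of the 8 arrays in all 8 genes; levels are not comparable between genes.

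Spread within the wild-type group was a shared feature of the members. Across the brightest probe sets, WT 6 was the lowest of the 8 arrays in 8 of 8 genes, and WT 3 was the highest WT array in 6 of 8. The highest Nix_KO array was Nix_KO 3 in 4 genes and Nix_KO 6 in the other 4. The distance from the lowest to the highest WT array was 0.35 to 2.64 log2 units and exceeded that of the Nix_KO arrays, 0.25 to 1.12, in 6 genes, the exceptions being Tmod1 and Mpp1. In Sptb, Ank1, Add2 and Dmtn the wild-type arrays spanned more than the mean difference between genotypes. The gap from the highest WT to the lowest Nix_KO array was nevertheless between 0.53 and 1.33 log2 units in every gene. Without WT 6 the log2 changes were smaller, 1.74 for Sptb, 1.78 for Ank1, 1.97 for Epb42, 0.94 for Slc4a1, 1.95 for Add2, 1.60 for Dmtn, 1.85 for Tmod1 and 1.09 for Mpp1. All 8 still passed (limma adjusted p from 0.00686 to 0.0149).

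Genes with several probe sets allowed a second look. Ank1 1425677_a_at rose by 2.60 ± 0.40 and Epb42 1417338_at by 2.73 ± 0.44 (limma adjusted p = 0.00332 and 0.00371). Slc4a1 1416464_at read 14.93, 14.90, 15.22 and 15.08 in the Nix_KO arrays against 14.03, 13.76, 13.73 and 12.53 in the WT arrays, a change of 1.52 ± 0.30 (limma adjusted p = 0.00625). The third Slc4a1 probe set, 1431743_a_at, was much dimmer at 6.74, 6.28, 6.79 and 8.55 against 5.78, 5.12, 5.75 and 4.33. Its change was 1.85 ± 0.49 (limma adjusted p = 0.0213), at least 3.20-fold when values under 5 are set to 5. It rested on few arrays: the call was lost without WT 4, without WT 6 and with no filter on dim probe sets (limma adjusted p = 0.0548).

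The remaining Add2 probe sets gave changes of 2.17 ± 0.28 (1431076_at), 1.31 ± 0.27 (1421975_a_at) and 1.11 ± 0.31 (1451914_a_at), with limma adjusted p-values of 0.00248, 0.00717 and 0.0246. The last of these lost its call without Nix_KO 3, WT 4, WT 5 or WT 6, and with no filter (limma adjusted p = 0.0547). Dmtn had the largest member change in 1438189_s_at, which read 8.48, 8.82, 9.12 and 9.45 in the Nix_KO arrays and 6.02, 5.66, 5.61 and 4.03 in the WT arrays. That is 3.64 ± 0.40 on the log2 scale (limma adjusted p = 0.00191), or at least 10.5-fold with the WT 6 value set to 5. Its other probe set, 1445439_at, changed by 1.07 ± 0.16 (limma adjusted p = 0.0031), with WT arrays within 5.71 to 5.92. The second Sptb probe set, 1455226_at, read 5.20, 5.35, 5.37 and 5.71 against 4.73, 5.06, 5.26 and 4.68, and its change of 0.47 ± 0.18 did not pass (limma adjusted p = 0.0789). Here the groups overlapped, because WT 5 exceeded Nix_KO 10. Of the 4 probe sets too dim to test, Add2 1450442_at and Mpp1 1423243_at reached 5 in 3 of 4 Nix_KO arrays and in 0 of 4 WT arrays, while Ank1 1443291_at and 1452512_a_at stayed below 5 in all 8.

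**Figure D2:**
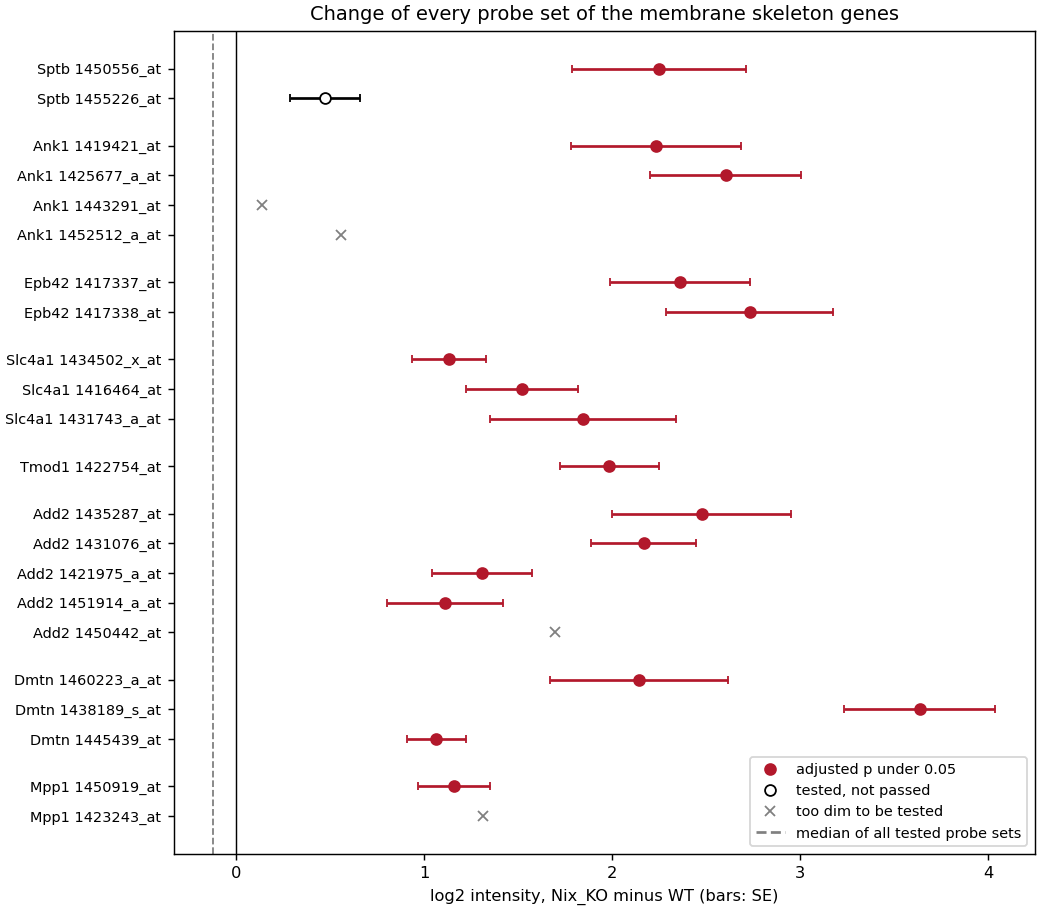
Log2 change, Nix_KO minus WT, of the member probe sets with its standard error as bars, grouped by gene; crosses are probe sets too dim to test and the dashed line is the median of all tested. The 17 calls lie between 1.07 and 3.64, and the dim Sptb probe set at 0.47 is the tested one that did not pass.

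The 10 such pairs, each a probe set against the brightest one of its gene, were compared by a two-sided exact permutation test over the arrays, adjusted over the 10. The smallest exact permutation p that 4 against 4 arrays can give is 0.0286. With 5 of the 10 pairs at that value, the smallest adjusted p was 0.0571 and 0 pairs passed. At the unadjusted p of 0.0286 stood 5 pairs by exact permutation, in which the other probe set changed by -1.78 (Sptb), 0.39 (Slc4a1 1416464_at), -1.17 and -1.37 (Add2 1421975_a_at and 1451914_a_at) and 1.49 (Dmtn 1438189_s_at) relative to the brightest. In Sptb and Add2 the smaller changes were those of dim probe sets, and in Dmtn the second in brightness had the larger change. Without WT 3, 6 of the 10 pairs passed (exact permutation, adjusted p = 0.0476).

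Band 3 served as a common reference for the other members, since it is the membrane protein that the network is fastened to. The log2 change exceeded that of Slc4a1 by 1.34 for Add2, 1.23 for Epb42, 1.12 for Sptb, 1.10 for Ank1, 1.01 for Dmtn and 0.85 for Tmod1. For Mpp1 the excess was 0.03 (exact permutation p = 0.886). Over the 7 genes compared, Add2, Epb42, Sptb and Tmod1 had the smallest exact permutation p that the design allows, 0.0286, with an adjusted p of 0.05, and Ank1 and Dmtn had 0.0571, adjusted 0.0667. None was under the threshold of 0.05 after adjustment. The sizes depended on the probe sets used. With the tested probe sets of each gene averaged, the excess was 0.27 for Add2, 0.49 for Tmod1 and 0.78 for Dmtn, and Sptb turned to -0.14. For Ank1 and Epb42 the excess stayed within 0.71 to 1.35 and 0.84 to 1.38 over 15 settings, this one among them. With the other bright Slc4a1 probe set as reference it was 0.46 for Tmod1, 0.62 for Dmtn, 0.71 for Ank1, 0.73 for Sptb, 0.84 for Epb42 and 0.96 for Add2. Without WT 3, 5 genes passed (Sptb, Ank1, Epb42, Add2 and Dmtn, exact permutation, adjusted p = 0.04). The Slc4a1 probe set lay near the top of the intensity scale, and the part that signal compression plays in its smaller change was not tested.

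Most members have close relatives that serve other cell types, and most of those tested did not rise in their brightest probe set. Of 39 paralogues listed, 35 were named by the annotation and 20 were bright enough to test in a fit with 1 probe set per gene, 11027 genes in all. Among the 20, 1 rose and 9 fell, beside 14.2% and 24.1% of all genes tested, and 10 did not pass. Their median log2 change was -0.57, beside -0.15 over all genes and 2.19 over the 8 members. Without the 3 arrays with pancreatic transcripts, 1 paralogue rose and 2 fell, and 2 rose with probe sets averaged, with median centring or without Nix_KO 10. Over all the lists, 25 genes had several tested probe sets, of which 12 had both a call and a probe set that did not pass and 0 had calls in both directions. Next to Sptb, the non-erythroid spectrins Sptan1 and Sptbn1 fell by 1.36 ± 0.29 and 1.10 ± 0.28 (limma adjusted p = 0.00487 and 0.0122), and Sptbn4 changed by -0.46 without passing. For Sptbn1, 1 of 5 tested probe sets fell, and the others did not pass. Ank3, the ankyrin of neurons and epithelia, changed by -0.07 (limma adjusted p = 0.839). The bicarbonate transporters Slc4a2 and Slc4a8 fell by 0.68 and 0.99, the latter near the limit of 5, and the transglutaminases Tgm1 and Tgm2, relatives of Epb42, fell by 1.25 and 0.76 (limma adjusted p from 0.00412 to 0.0144 for the 4 genes).

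Among adducins only beta-adducin rose; gamma-adducin (Add3) fell by 1.10 ± 0.29 (limma adjusted p = 0.0131), and alpha-adducin (Add1), the partner of beta-adducin in the red cell, changed by 0.33 ± 0.18 without passing (limma adjusted p = 0.163). Tmod3, the tropomodulin found in most tissues, fell by 0.69 (limma adjusted p = 0.0324) in its brightest probe set, with 1 of its 4 tested probe sets called, and Epb41l2, a relative of the unmeasured Epb41, fell by 0.99 (limma adjusted p = 0.00389). Epb41l1 and Epb41l3 changed by 0.05 and -0.19 without passing. Svil, a villin-headpiece protein like dematin, changed by -0.28 (limma adjusted p = 0.238). In the scaffold family of Mpp1, Mpp2 rose by 1.02 ± 0.21 (limma adjusted p = 0.00482); it was the single paralogue whose brightest probe set rose. Mpp5 changed by 0.29 in its brightest probe set without passing, but 2 of its 3 tested probe sets rose, by up to 0.89. The other scaffolds did not pass, with changes of -0.80 for Mpp6, 0.68 for Mpp7 and 0.01 for Dlg1.

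**Figure D3:**
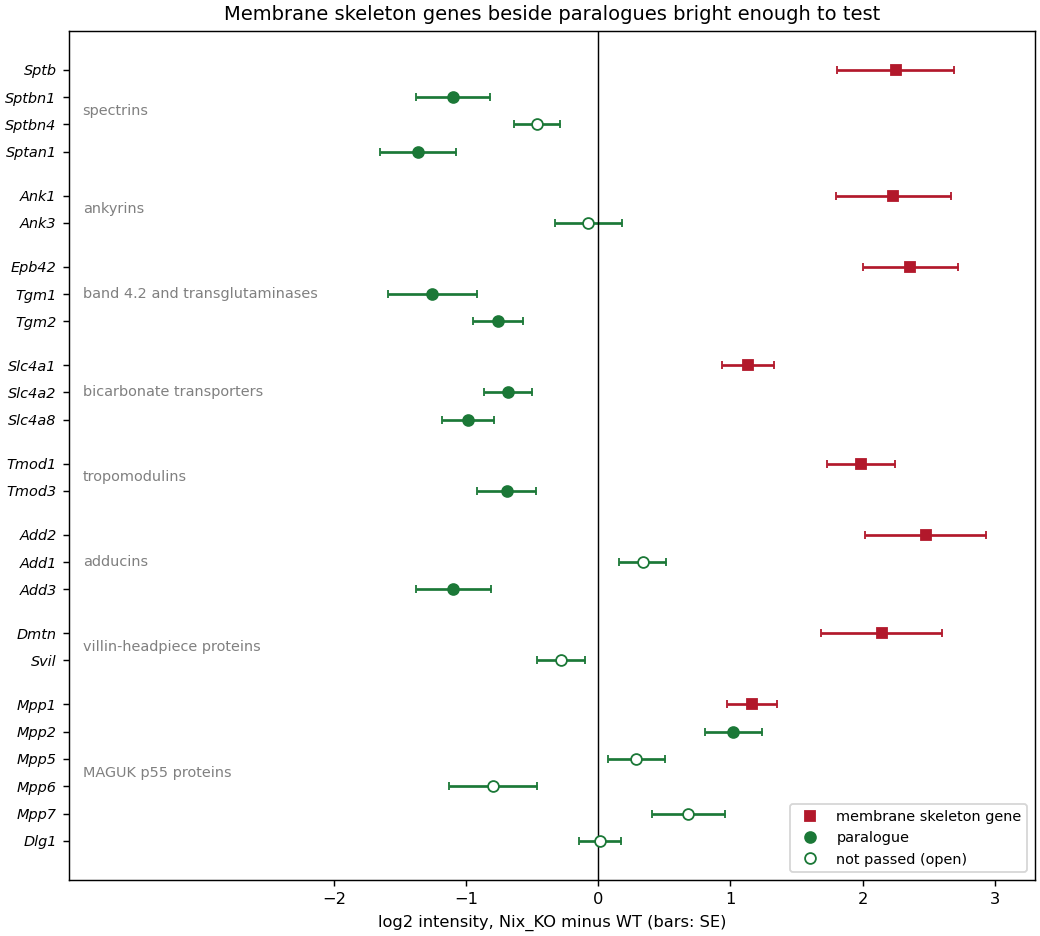
Log2 change, Nix_KO minus WT, with its standard error for each measured member and its tested paralogues, grouped by family, with open points for genes that did not pass. The members lie between 1.13 and 2.48, while the paralogues lie between -1.36 and 1.02.

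Proteins that sit beside the skeleton in the red cell membrane mostly rose with it. Of 16 partners listed, 12 were tested, 9 rose, 1 fell and 2 did not pass, beside 14.2% of all genes that rose and 24.1% that fell. Their median was 1.86, beside -0.15 over all genes. Without the 3 pancreatic arrays 9 rose and 0 fell in the fit with 1 probe set per gene. The 2.24% of all probe sets that then rose comes from the separate probe-set fit. These partner counts therefore do not compare directly with that share or with the member probe sets that passed in that setting. Stom, which encodes the membrane protein stomatin, rose by 1.83 ± 0.23 and Gypc, encoding the glycophorin that binds protein 4.1R and p55, by 1.90 ± 0.26 (limma adjusted p = 0.00118 and 0.00133). Kel, the Kell blood group protease, rose by 2.37 ± 0.41 (limma adjusted p = 0.0024). Rhag and Rhd, which form the Rh complex bound to ankyrin, rose by 2.37 and 2.22, Icam4 by 2.91, Ermap by 2.21, Aqp1, the water channel, by 1.83, and Bsg by 1.16. Slc2a1, the glucose transporter of many cells, fell by 1.05 ± 0.24 (limma adjusted p = 0.0068). Cd47, a marker of self that is present on most cells, changed by 0.10 in its brightest probe set (limma adjusted p = 0.785), while 3 of its 5 tested probe sets rose, by up to 1.27. Piezo1, a mechanically gated channel, changed by -0.08 (limma adjusted p = 0.706). Xk and Bcam were too dim to test.

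The skeleton is built around short actin filaments. None of the genes listed for actin, tropomyosin and general actin regulators rose in its brightest probe set. The list thus holds more than the parts of these filaments, and it leaves out the members Tmod1 and Add2. Of 16 listed, 13 were tested, 0 rose, 7 fell and 6 did not pass in the limma fit, with a median of -0.48, beside 24.1% of all genes that fell. Only 3 fell without WT 4 or without WT 6, and 1 without the 3 pancreatic arrays. Gsn, the actin-severing gelsolin, fell by 1.25 ± 0.17, Capzb, a capping protein subunit, by 0.77 ± 0.18, and Actg1, gamma-actin, by 0.64 ± 0.16 (limma adjusted p = 0.00133, 0.0086 and 0.0097). Actb, beta-actin, changed by -0.095 in its brightest probe set (limma adjusted p = 0.578), while the other tested one rose by 1.47. With probe sets averaged, 1 gene of this list rose. The tropomyosins of the family, which lie along the filament, were Tpm3 and Tpm4, which fell by 0.48 and 0.71, and Tpm1, at 0.02 (limma adjusted p = 0.0235, 0.0181 and 0.945).

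Most genes listed as erythroid regulators rose too. The list holds transcription factors and cofactors, and also the receptors Epor and Tfrc. Of 10 erythroid regulators, 9 rose and 1 fell, beside 14.2% of all genes that rose and 24.1% that fell. Their median was 2.01, beside 2.19 for the members and -0.15 over all genes. Without the 3 pancreatic arrays 9 regulators rose and 0 fell, again in the fit with 1 probe set per gene. The 2.24% of all probe sets that then rose belongs to the probe-set fit and is not a like share. Nfe2 rose by 2.23 ± 0.36, Gata1 by 2.20 ± 0.38 and Tal1 by 2.30 ± 0.40 (limma adjusted p = 0.00199, 0.00232 and 0.00242), all DNA-binding factors of the erythroid lineage. Ldb1, a cofactor that bridges them and is present in many cells, fell by 0.42 (limma adjusted p = 0.043). That call was lost with quantile normalization or median centring, and without any 1 of Nix_KO 2, Nix_KO 3, WT 3, WT 4, WT 5 or WT 6.

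Markers of the cells that a spleen holds were read beside the members, against 14.2% of all genes that rose and 24.1% that fell. All 7 erythroid cell markers tested rose, and their summed intensity was 81234 to 109619 in the Nix_KO arrays and 24878 to 49026 in the WT arrays. Of these markers Hba-a1 was below log2 5 in all arrays. Neutrophil markers rose in 9 of 9 tested (42391 to 76280 against 6974 to 41639), so the members did not rise alone. B cell markers fell in 9 of 9 (13551 to 23484 against 41706 to 51007), T cell markers in 7 of 8 (3773 to 7857 against 7863 to 12171) and endothelial and stromal markers in 8 of 10 (2388 to 4909 against 7227 to 8882). Macrophage markers fell in 4 of 10 (26716 to 38849 against 42248 to 48902) and megakaryocyte markers in 3 of 9 (8257 to 12976 against 10401 to 15294), shares not far from that of all genes. Beta-adducin is also made in neurons and tropomodulin-1 in muscle. Most muscle and neuron markers, 8 and 9 of 10, were too dim to test, and of those tested 1 muscle marker fell and 0 rose (summed intensities of 317 to 482 against 415 to 675 for muscle and 136 to 216 against 141 to 168 for neurons). None of the 8 pancreatic markers tested passed. The part of these shifts in cell makeup in the member changes was not tested.

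The order of the arrays within a genotype was similar for members and regulators. Averaged over the 8 members after each gene was centred on its own mean, Nix_KO 10, 2, 3 and 6 stood at 0.65, 0.88, 1.21 and 1.19, and WT 3, 4, 5 and 6 at -0.34, -0.73, -0.83 and -2.04. For the erythroid regulators the same means were 0.56, 0.80, 0.92 and 1.06, then -0.08, -0.59, -0.82 and -1.85. WT 3 and WT 6, both wild type, differed by 1.70 in the members, 1.77 in the regulators, 1.14 in the erythroid cell markers and 2.58 in the neutrophil markers, but by -0.21 in the B cell markers. Between genotypes the difference was 1.97 for the members, 1.67 for the regulators, 1.85 for the neutrophil markers and -1.51 for the B cell markers. The low WT 6 values thus appeared in erythroid and neutrophil genes and not in B cell genes. The largest difference of WT 3 from WT 6 in any list was that of the pancreatic markers, 6.15. WT 3 is among the arrays with pancreatic transcripts.

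**Figure D4:**
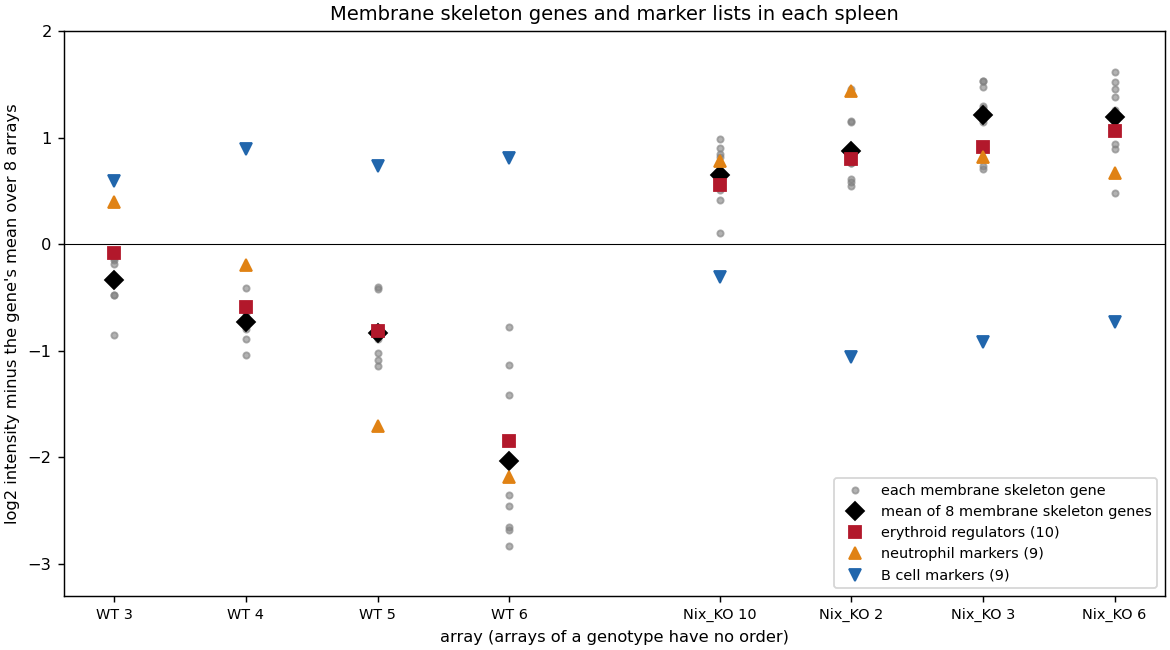
Mean centred log2 intensity in each array for the members, the erythroid regulators and marker lists of other cells. The members run from 0.65 to 1.21 in the Nix_KO arrays and from -2.04 to -0.34 in the WT arrays, with WT 6 lowest for members and regulators; the order of arrays on the axis carries no meaning.

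The genes whose pattern over the 8 arrays was nearest to the mean member pattern were found by root mean square distance among 11019 non-member genes, where the median distance was 1.19 log2 units. Pip5k1b, which makes the phosphoinositide PIP2, was the nearest at 0.0487. Tspan33, a tetraspanin, followed at 0.0911, then Slc22a23, a transporter family member, at 0.102, Sh3yl1 at 0.141, Ubac1 at 0.141 and Ppp1r15a, a phosphatase subunit of the stress response, at 0.146. The members themselves lay farther out, from 0.27 for Dmtn to 0.56 for Mpp1, with Slc4a1 at 0.50. This is a description over 8 arrays of 2 groups, where any gene that changed by a similar amount comes out near.

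Since the members moved together, their promoters were searched for the letters that GATA factors and KLF1 are known to bind. RefSeq windows of 250 bases before to 50 bases after the start on GRCm38.p6 were at hand for 5 members, Sptb, Epb42, Tmod1, Add2 and Mpp1. The letters searched on both strands were GATA with A or T before it and A or G after it, and CCNCNCCC, with overlapping matches allowed. A GATA match was found in 4 of the 5, at 12 bases from the start in Sptb, -226 in Epb42, -234 in Add2 and -147 in Mpp1, and in 29.8% of all 32851 promoters. CCNCNCCC was found in 3 of the 5, with 3 matches in Sptb, 4 in Tmod1 and 2 in Add2, and in 49.5% of all promoters. Sptb and Add2 held both, as did 10.2% of all promoters. The windows below are shown because they stand for the 3 kinds seen, with the matches in capitals: Add2 (chr6:86028431-86028730, plus strand) holds both, Epb42 (chr2:121036828-121037127, minus strand) a GATA match alone, and Tmod1 (chr4:46038972-46039271, plus strand) CCNCNCCC alone.
Add2: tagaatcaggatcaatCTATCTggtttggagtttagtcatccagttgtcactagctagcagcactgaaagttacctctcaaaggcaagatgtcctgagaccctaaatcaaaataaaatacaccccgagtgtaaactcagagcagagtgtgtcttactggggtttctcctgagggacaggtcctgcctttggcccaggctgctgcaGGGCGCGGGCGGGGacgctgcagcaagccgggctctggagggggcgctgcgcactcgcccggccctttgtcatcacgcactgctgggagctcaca
Epb42: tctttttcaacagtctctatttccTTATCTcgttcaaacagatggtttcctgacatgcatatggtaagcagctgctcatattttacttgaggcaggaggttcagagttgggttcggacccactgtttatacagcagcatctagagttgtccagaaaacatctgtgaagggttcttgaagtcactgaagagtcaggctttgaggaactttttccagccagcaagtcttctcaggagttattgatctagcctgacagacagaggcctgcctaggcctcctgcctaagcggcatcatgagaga
Tmod1: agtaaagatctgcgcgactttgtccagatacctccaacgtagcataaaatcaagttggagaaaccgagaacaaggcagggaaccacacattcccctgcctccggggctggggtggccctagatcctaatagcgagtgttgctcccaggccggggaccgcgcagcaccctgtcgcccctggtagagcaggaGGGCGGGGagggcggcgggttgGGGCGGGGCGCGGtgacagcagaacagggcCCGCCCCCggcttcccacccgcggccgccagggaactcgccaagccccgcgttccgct
In Add2 the GATA match lies near the far end of the window, and the pair of CCNCNCCC matches overlap each other at -45 and -39. The GATA match and the CCNCNCCC pair all lie on the strand opposite to the printed one. Epb42 has its single match near the far end, while Tmod1 has its 4 matches close to the start, at -60, -38, -33 and -8. The log2 changes of these 3 genes were 2.48 (Add2), 2.36 (Epb42) and 1.99 (Tmod1). As all 5 members searched rose, with or without a given match, their rise cannot be related to the kind of match. Ank1, Slc4a1 and Dmtn had no window to search. A match describes letters in this window and is not evidence of binding.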

How the data were processed

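The authors deposited 1 linear intensity per probe set and array, made with GCRMA per the submitters' processing notes; for its version, later scaling and genome build, nothing is given in the sources used here. As the planned design assumed log2 values, the deposited intensity was log2-transformed with no offset. Of 45101 probe sets, 64 controls were left out. Probe sets at log2 intensity 5 or above in 4 or more of the 8 arrays were compared with limma 3.58.1 (lmFit, eBayes) in R 4.3.3, checked on simulated data, with Benjamini-Hochberg adjustment. Gene symbols came from the platform annotation, and 0 columns of other samples were present. A gene was represented by its brightest single-gene probe set. Alternatives changed the filter, scaling, variance model, arrays and block.

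The members and lists were chosen with earlier results of these data known. Named genes were all members, the 3 with the smallest adjusted p in each direction of each list, tested paralogues and the 6 nearest profiles. Rhag, Rhd, Icam4, Ermap, Aqp1, Bsg, Cd47, Piezo1, Actb and the tropomyosins were added after their values were seen. Numbers 3 and 6 occur in both genotypes; same-numbered arrays deviated with correlations of 0.252 and 0.147, and 2 pairs were too few to treat as pairs. Figures used matplotlib 3.10.9 in Python 3.11.15.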

Additional observations from a re-analysis of the deposited data

Results flagged for a closer look

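Each of the 44 sets of 4 arrays, 1 per member probe set and genotype, was checked for an array standing apart by Dixon's criterion for 4 samples, which chance meets in about 1 of 20 sets. It was met in 2. Slc4a1 1434502_x_at in WT 6 was 13.86, with the nearest WT array at 14.59, a gap of 0.894 of the WT range. Ank1 1452512_a_at in Nix_KO 6 was 4.42, with the nearest Nix_KO array at 3.04, a gap of 0.911 of the Nix_KO range, in a probe set too dim to test.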

How the results depend on the processing

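Of the 18 member probe sets tested, 17 passed, and 15 to 17 passed with 1 array left out; quantile normalization, an offset of 16, values under 5 set to 5, array weights and a robust intensity trend kept each of the 18 on its side of the threshold. Median centring, which moved the median change of all probe sets from -0.12 to 0.00, added the dim Sptb probe set. A filter at log2 7 left 13, all passing, beside 5342 of 14202 probe sets that changed in either direction. In Ank1 1425677_a_at, Epb42 1417338_at and Dmtn 1438189_s_at every WT array was under 7. These met that filter through the Nix_KO arrays alone. With no filter 17 of the 22 passed, beside 6028 of 45037 probe sets that changed in either direction. Slc4a1 1431743_a_at and Add2 1451914_a_at lost their calls, and the 17 then included probe sets too dim for the main test. Without Nix_KO 3, WT 3 and WT 5, 5 of 18 member probe sets, 690 of all probe sets and 22 of the genes in the 4 pathway lists passed, against 17, 6711 and 37 with all arrays. With the title number as a replicate block, which leaves 1 residual degree of freedom, these counts were 0, 1 and 23, and the numbers were not treated as pairs. List genes were counted in the fit with 1 probe set per gene, which has its own adjustment. Their counts therefore do not compare with those of the probe-set fit, in which the members were counted. With 1 array left out, 3996 to 6993 of all probe sets and 31 to 39 list genes passed, as did 0 to 5 members against Slc4a1 and 0 to 6 probe-set pairs. The excess of Mpp1 over Slc4a1 turned to -0.042 with quantile normalization, -0.11 without Nix_KO 6, -0.02 without WT 3, -0.045 without WT 4 (0.17 at most, without Nix_KO 10), -0.34 with probe sets averaged and -0.36 with the other Slc4a1 probe set, an alternative added after seeing the data. That of Sptb became -0.14 with probe sets averaged. The Epb42 pair ran from -0.078 without Nix_KO 6 to 0.56 without Nix_KO 10, and the Add2 1431076_at pair from -0.46 without WT 5 to 0.025 without WT 6. The cause was not tested. The permutation comparisons were not run without the 3 pancreatic arrays, since 3 against 2 arrays cannot pass the threshold. GCRMA draws weak signals together, so fold changes of probe sets near log2 5 depend on it, and 4 arrays per group limit the precision throughout.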
